A study of Mus musculus with 6 samples.

Results

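DNA methylation writers and erasers are the enzymes and cofactors that place methyl groups on cytosines of CpG dinucleotides or start their removal. A set of 10 mouse genes was named for this: Dnmt1, Uhrf1, Dnmt3a, Dnmt3b, Dnmt3l, Tet1, Tet2, Tet3, Tdg and Mbd4. Rows of the authors' deposited table whose Ensembl identifier carries 1 of these symbols in GENCODE M21 were taken, which gave 7 members among 22432 rows. Dnmt3l, Tet1 and Tet2 have no row in the data used and were not analysed here. The table came from total RNA sequencing of germline stem cells from male mice, kept in culture; in the testis such cells sustain sperm production. CDH1+/THY1+ cells (3 samples) were compared with CDH1-/THY1+ cells (3 samples), sorted by E-cadherin and by the surface glycoprotein THY1. In each population 1 sample came from each of the cultures RP7, RP5 and WT1. The strain was given as OCT4/GFP; Dox-OCT4 for RP7, aged 8 weeks, and for RP5, aged 19 days, and as C57BL/6 for WT1, aged 5 weeks. All 6 samples were male, at passage 6 to 8, and had been grown on DR4 mouse fibroblast feeders in medium with GDNF and FGF.

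DNA methylation is copied at each round of replication by DNMT1, which UHRF1 brings to hemimethylated DNA, and is set anew in male germ cells by DNMT3A and its relatives with the catalytically inactive partner DNMT3L. TET enzymes oxidise 5-methylcytosine, TDG cuts out the oxidised bases or mismatched thymine, and MBD4 removes thymine or uracil opposite guanine at CpG sites. In the male germline, methylation is known for silencing transposons and for setting paternal imprints.

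CDH1+/THY1+ cells had lower levels of the eraser Tet3 and the de novo writer Dnmt3a, and higher levels of the glycosylase gene Tdg. Of the 7 members with a row in the authors' deposited table, 2 were lower, 1 was higher and 4 were not called at an adjusted p under 0.05 (DESeq2, Benjamini-Hochberg). The same threshold called 33.5% of all tested rows, 17.1% as higher and 16.4% as lower, so a share of 3 in 7 members lies near the background, which was 44.3% among rows whose mean count reached 100. The median log2 fold change of the 7 members was -0.04, against 0.01 over all rows. At an adjusted p under 0.01 (23% of rows) and after a Benjamini-Yekutieli adjustment (16.3% of rows) the number of called members was also 3. Fold changes are CDH1+/THY1+ over CDH1-/THY1+. A value written with ± is on the log2 scale and followed by the standard error of the authors' test, and an interval is the 95% normal interval from these 2 values. The table holds no value per library, so whether the samples of the 2 populations overlap for a member is unknown, and the p-values measure only the spread between these 6 samples.

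**Figure D1:**
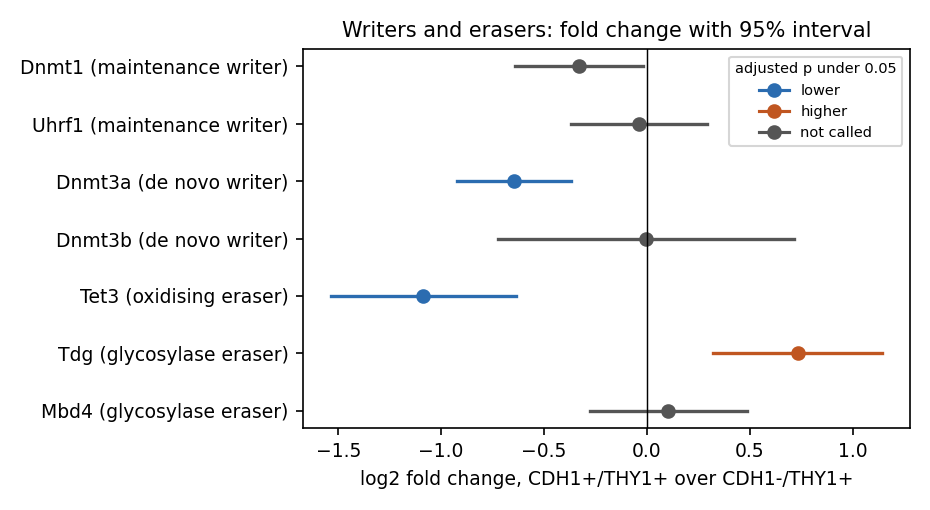
Log2 fold change (x axis, above 0 where CDH1+/THY1+ cells were higher) of the 7 members, in the authors' deposited table, with lines for the 95% interval and colours for the call. The intervals of Tet3 and Dnmt3a lie below 0 and that of Tdg above 0, and the interval of Dnmt3b is the widest of the 7.

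Markers of cell types gave the following counts in the same comparison, to be read against the 17.1% of all rows called higher and the 16.4% called lower. Of 14 germ cell markers, 11 were lower and 0 higher in the authors' deposited table (median log2 fold change -1.25), with Tdrd1 at -2.22 ± 0.20 and Zbtb16 at -1.86 ± 0.18. The 3 not called were Sall4 at -0.36 ± 0.28, Lin28a at -0.29 ± 0.32 and Etv5 at 0.20 ± 0.29. Of 18 fibroblast markers, the feeder cell type, 6 were higher and 0 lower (median 0.77), and all 18 had a fold change above 0. Together they held 2.08% of the summed mean counts of the authors' deposited table, against 0.267% for the germ cell markers. How much of the fibroblast signal came from feeder cells was not tested. Sertoli cell markers had 1 higher and 0 lower of 9, with 7 not called and 1 without an adjusted p, in the authors' deposited table (median 0.64), with the Sertoli hormone gene Amh at a mean count of 2.27, and leukocyte markers had 3 higher and 0 lower of 4 (median 1.37), with Ptprc at a mean count of 13.9. The part of the marker values in the members' values was not tested, and in bulk RNA fewer cells of a type and less RNA per cell cannot be told apart. The direction rests on the name of the table, because Cdh1 was not analysed here. Thy1, the marker shared by both populations, had 0.48 ± 0.18 in the authors' deposited table (adjusted p = 0.0292, DESeq2).

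The maintenance pair was the most abundant part of the family and neither gene was called. Uhrf1 (chromosome 17, 56303321 to 56323486 in GRCm38) had a mean normalised count of 6439 in the authors' deposited table, or 1512 per kilobase of merged exons. Dnmt1 (chromosome 9, 20907209 to 20959888) had a mean count of 7996 in the authors' deposited table, or 1084 per kilobase. In mean count Uhrf1 lay above 98.6% and Dnmt1 above 98.9% of all rows. The log2 fold change of Uhrf1 was -0.04 ± 0.17 in the authors' deposited table (adjusted p = 0.898, DESeq2), with an interval of -0.37 to 0.29 that leaves room for levels from 1.29-fold lower to 1.23-fold higher in CDH1+/THY1+ cells. Dnmt1 had -0.33 ± 0.16 in the authors' deposited table, an interval of -0.64 to -0.02, and an adjusted p of 0.0902 (DESeq2). Its unadjusted p was 0.0365, so the value of Dnmt1 fell short of the threshold only after adjustment, and a level up to 1.56-fold lower is within its interval. The intervals of the pair overlap, and the difference between them was not tested because the table gives no covariance between genes.

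Dnmt1 and Uhrf1 were also the members with a match to the E2F motif, the binding sequence of the factors that drive S phase genes, in the 250 bases before an annotated start. The 30 bases around each match are shown because these 2 genes share it, from the promoter windows of RefSeq on GRCm38.p6, 5′ to 3′ on the gene's strand, with the match in capitals.
Dnmt1 (chr9:20952824-20952853, minus strand): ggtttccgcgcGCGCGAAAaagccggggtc
Uhrf1 (chr17:56304117-56304146, plus strand): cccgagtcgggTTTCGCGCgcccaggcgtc
The letters searched were TTTCCCGC, TTTCGCGC, TTTGCCGC and TTTGGCGC on both strands, and 1.86% of 32851 windows of that length held a match. Each of these words holds a CpG. The matching windows of Dnmt1 and Uhrf1 held 26 and 30 CpG dinucleotides, against a median of 6 over all windows. The share is per window and was not computed for windows of like CpG count. The match of Dnmt1 lies on the strand opposite to the gene, 211 bases before the start at 20952623, and that of Uhrf1 lies on the gene's strand, 177 bases before the start at 56304313. Both matches have the same 8 letters, read on opposite strands. The other member windows, among them further windows of Dnmt1 and Uhrf1, held no match, which says only that these letters are not in them. The exon-free stretch before the Dnmt1 start at 20952623 ends at 20952707, so the Dnmt1 match lies beyond an annotated exon boundary. Of 22 S phase genes with a row, the authors' deposited table had 6 higher, 0 lower and 16 without a call, with a median of 0.19. Counts for this list and the later ones are to be read against the 17.1% of all rows called higher and the 16.4% called lower. Among rows with a mean count of at least 100, 44.3% were called in either direction. Pcna stands among the 6 higher S phase genes as well as among the partners described next. Among the higher ones, the ribonucleotide reductase gene Rrm2 had 1.81 ± 0.24 and the replication factor gene Gins2 1.14 ± 0.24 in the authors' deposited table, and the DNA polymerase alpha gene Pola1 had 0.71 ± 0.22. The values of Dnmt1 and Uhrf1 lie within the range of the 16 S phase genes without a call, which ran from -0.40 to 0.36.

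Partners of maintenance methylation moved in both directions. Of 13 with a row in the authors' deposited table, 6 were lower, 3 higher and 4 not called (median -0.28). Hells, the chromatin remodeller that opens DNA to DNMT1, fell to -0.55 ± 0.16 and Cdca7, which recruits HELLS, to -0.81 ± 0.18 in the authors' deposited table. The related Cdca7l fell to -1.14 ± 0.20, the H3K9 methyltransferase gene Ehmt2 to -0.84 ± 0.16 and the silencing factor gene Smchd1 to -0.79 ± 0.17 in the authors' deposited table. On the other side stood Dppa3, whose product keeps UHRF1 off chromatin, at 1.91 ± 0.61 (adjusted p = 0.00747, DESeq2), and the replication clamp gene Pcna, to which DNMT1 binds, at 0.48 ± 0.19 in the authors' deposited table. No call was made for Usp7, which stabilises UHRF1, or Lig1, a ligase that UHRF1 recognises, at 0.18 ± 0.19 and -0.05 ± 0.21 in the authors' deposited table.

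Of the de novo writers, Dnmt3a was called and Dnmt3b was not. Dnmt3a (chromosome 12, 3806007 to 3914443) fell to -0.65 ± 0.14 in the authors' deposited table (adjusted p = 4.2e-05, DESeq2), which is 1.57-fold lower in CDH1+/THY1+ cells with an interval of 1.29 to 1.90. Only 12.8% of rows with a mean count of at least 100 lay lower than Dnmt3a. Dnmt3b (chromosome 2, 153649450 to 153687730) had -0.00 ± 0.37 in the authors' deposited table (adjusted p = 0.995, DESeq2). Dnmt3b is not shown to be equal in both populations, since its interval of -0.72 to 0.72 leaves room for levels from 1.65-fold lower to 1.64-fold higher. The intervals of Dnmt3a and Dnmt3b overlap, and the difference between these 2 genes was not tested.

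Dnmt3b stood apart from the other members by its spread. Its standard error of 0.367 exceeded that of 99% of the 200 genes nearest to it in mean count, whose median was 0.152, a ratio of 2.42. Dnmt3a, with almost the same mean count (1803 against 1839 in the authors' deposited table), had a standard error of 0.141, above 30% of its 200 nearest genes. Among the remaining members this percentile ran from 44 for Dnmt1 to 83.5 for Tet3. Which libraries carry the spread of Dnmt3b cannot be read from a table of the comparison.

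**Figure D2:**
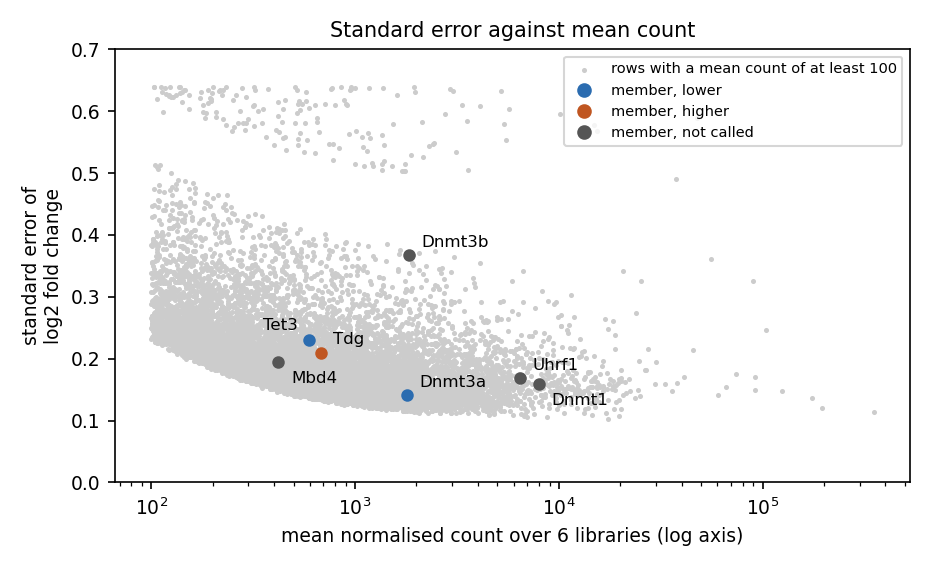
Standard error of the log2 fold change (y axis) against mean normalised count (x axis, log scale) for rows with a mean count of at least 100 (grey) and the 7 members (coloured by call), in the authors' deposited table. Dnmt3b, at 0.367, lies above the other members, which lie between 0.141 and 0.229.

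The levels of Dnmt3a and Dnmt3b per kilobase depend on the length used. Dnmt3b had 360.1 mean counts per kilobase of merged exons and Dnmt3a 108.4, although their mean counts per gene were close. The merged exons of Dnmt3a span 16642 bases and those of Dnmt3b 5106. With the longest transcript as length, Dnmt3b had 425.7 and Dnmt3a 186.2. The spread of a level over libraries is unknown, so this difference was not tested. Reads were counted per gene, so the long form of Dnmt3a and the short form from an internal promoter, which is known from germ cells and embryonic stem cells, are summed in 1 row. The sequences before these starts are shown to set them side by side, with CpG dinucleotides in capitals, from RefSeq windows on GRCm38.p6 and only up to the next annotated exon.
Dnmt3a, first upstream start (chr12:3806730-3806979, plus strand): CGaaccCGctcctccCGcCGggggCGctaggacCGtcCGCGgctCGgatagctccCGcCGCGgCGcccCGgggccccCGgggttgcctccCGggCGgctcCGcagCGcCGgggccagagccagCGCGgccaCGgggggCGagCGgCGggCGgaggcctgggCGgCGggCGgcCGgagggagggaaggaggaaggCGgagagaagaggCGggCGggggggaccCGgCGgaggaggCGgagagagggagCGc
Dnmt3a, internal start (chr12:3891494-3891727, plus strand): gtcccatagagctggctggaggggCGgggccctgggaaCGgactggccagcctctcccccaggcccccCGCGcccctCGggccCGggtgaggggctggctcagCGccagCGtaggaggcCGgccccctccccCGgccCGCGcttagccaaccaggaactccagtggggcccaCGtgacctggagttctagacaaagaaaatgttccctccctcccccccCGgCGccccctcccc
Over the full 250 bases the upstream window shown held 38 CpG dinucleotides, a number reached by 1.88% of all windows, and the internal one held 15, reached by 27.3%. RefSeq gives a second upstream start at 3807160, whose window overlaps the first and held 40, reached by 1.31%. The ratio of observed to expected CpG was 0.938 and 1.09 in the upstream windows and 0.459 in the internal one.

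The other de novo methyltransferase gene of the mouse male germline, Dnmt3c, arose from Dnmt3b and lies beside it on chromosome 2. It had a mean count of 1.00 and 0.23 ± 0.55 in the authors' deposited table, with no adjusted p. This value is uncertain, since how any reads that match both genes were assigned is not stated.

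Genes that guide de novo methylation were mostly lower. Of 11 with a row in the authors' deposited table, 8 were lower, 0 higher and 3 not called (median -1.32). Piwil4, whose piRNA complex directs methylation to transposons in the nucleus, fell to -1.79 ± 0.18, and the piRNA pathway genes Piwil2, Mael and Tex15 to -1.88 ± 0.22, -1.80 ± 0.20 and -1.76 ± 0.13 in the authors' deposited table. Spocd1, a partner of the Piwil4 complex, was at -2.35 ± 0.40 with a mean count of 59.3 in the authors' deposited table. Kdm1b, an H3K4 demethylase needed for imprint methylation in oocytes, fell to -1.32 ± 0.17 in the authors' deposited table. Of the H3K36 methyltransferases, whose marks the PWWP domain of DNMT3A reads, Nsd2 fell to -0.81 ± 0.16, whereas Nsd1 and Setd2, at 0.03 ± 0.20 and 0.00 ± 0.12 in the authors' deposited table, were not called. The germ cell markers, which were lower in the same comparison, stood at a median of -1.25, and their part in these values was not tested.

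**Figure D3:**
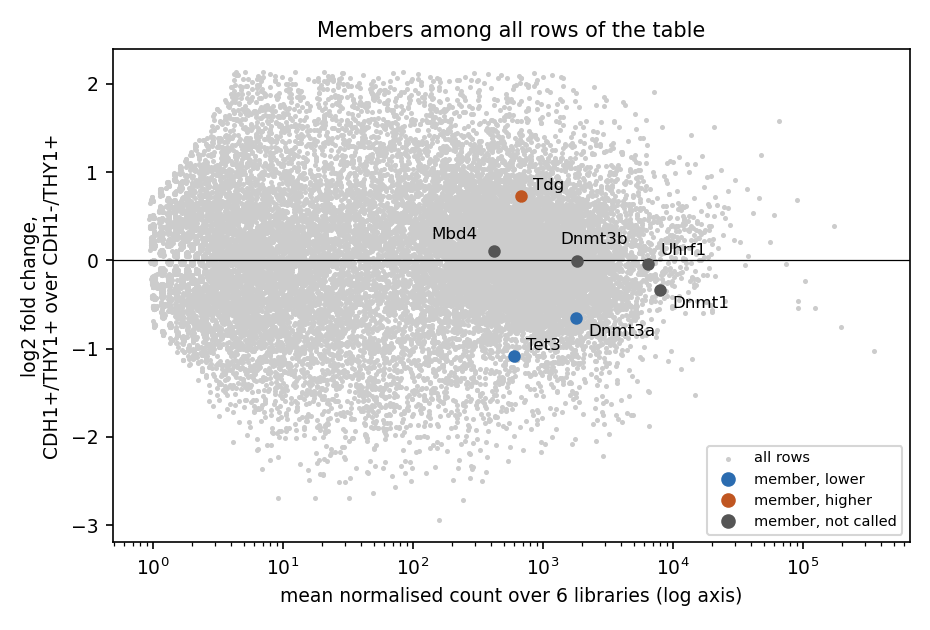
Log2 fold change (y axis) against mean normalised count over 6 libraries (x axis, log scale) for all rows (grey) and the 7 members (coloured by call), in the authors' deposited table. Mean counts of the members run from 421 for Mbd4 to 7996 for Dnmt1, and Tet3 at -1.09 and Tdg at 0.73 are the lowest and the highest member.

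Tet3 had the lowest fold change of the members. It lies on chromosome 6 (83362373 to 83459084) and had a mean count of 596 in the authors' deposited table, or 35.7 per kilobase of merged exons, the least of the 7. Tet3 fell to -1.09 ± 0.23 in the authors' deposited table (adjusted p = 2.14e-05, DESeq2), which is 2.12-fold lower in CDH1+/THY1+ cells with an interval of 1.55 to 2.90. Of rows with a mean count of at least 100, 4.72% lay lower. The transcript 5430434F05Rik overlaps Tet3 on the same strand over 3553 bases, with a mean count of 7.86 in the authors' deposited table. Tet3 was the TET gene with a row, so nothing can be said of the family's total level.

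Sin3a, a corepressor scaffold that binds TET1, was the only listed TET partner called lower, at -0.67 ± 0.16 in the authors' deposited table. The O-GlcNAc transferase gene Ogt, whose product binds TET3, was not called at -0.12 ± 0.15 in the authors' deposited table. Hcfc1, Cxxc4 and Cxxc5, on the same list, were not called. They had -0.35 ± 0.15, -0.40 ± 0.54 and -0.04 ± 0.19 in the authors' deposited table. Of 13 cytosine-modifying enzymes and TET partners with a row, 5 were higher and 1 lower in the authors' deposited table (median 0.23). The cytidine deaminase genes Apobec3 and Apobec1 had 2.07 ± 0.25 and 1.97 ± 0.32, and the stress-response gene Gadd45g, linked to demethylation by repair, 1.15 ± 0.27 in the authors' deposited table. The vitamin C transporter gene Slc23a2, which imports a cofactor of TET enzymes, fell to -1.16 ± 0.17 in the authors' deposited table. D2hgdh, which removes the TET inhibitor 2-hydroxyglutarate, rose to 0.89 ± 0.21 in the authors' deposited table. Mtr, the methionine synthase gene that feeds the methyl donor of all writers, fell to -1.53 ± 0.23, and Mat2a, which makes that donor, was not called at 0.20 ± 0.13 in the authors' deposited table. The whole list of donor and cofactor supply had 5 higher and 3 lower of 14 in the authors' deposited table (median 0.45).

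Tdg was the member that was higher. It lies on chromosome 10 (82629828 to 82650799) and had a mean count of 679.9 in the authors' deposited table, or 126.5 per kilobase. Tdg rose to 0.73 ± 0.21 in the authors' deposited table (adjusted p = 0.00242, DESeq2), which is 1.66-fold higher in CDH1+/THY1+ cells with an interval of 1.25 to 2.21. Of rows with a mean count of at least 100, 13.4% lay higher. Its gene overlaps Glt8d2 on the other strand over 367 bases, and Glt8d2 was not called, at -0.10 ± 0.28 in the authors' deposited table. The same comparison gave the pseudogene Tdg-ps a mean count of 38.9 and 2.02 ± 0.37 (adjusted p = 8.29e-07, DESeq2). How any reads that match both Tdg and Tdg-ps were assigned is not stated.

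Tet3 and Tdg act in turn in active demethylation, and are the lowest and the highest member. Since Tet3 was called lower and Tdg higher, that their intervals do not overlap follows from the calls. Their log2 fold changes lie 1.82 apart, and the difference was not tested. The sequences before their RefSeq starts are shown for these called erasers, with CpG dinucleotides in capitals. They come from windows on GRCm38.p6 and run only up to the next annotated exon. The Tet3 window belongs to a start at 83441678, inside the annotated gene, whose 5′ end is at 83459084. Of its 250 bases, 76 are shown.
Tet3 (chr6:83441679-83441754, minus strand): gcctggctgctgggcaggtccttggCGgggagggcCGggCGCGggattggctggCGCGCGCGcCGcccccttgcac
Tdg (chr10:82629588-82629827, plus strand): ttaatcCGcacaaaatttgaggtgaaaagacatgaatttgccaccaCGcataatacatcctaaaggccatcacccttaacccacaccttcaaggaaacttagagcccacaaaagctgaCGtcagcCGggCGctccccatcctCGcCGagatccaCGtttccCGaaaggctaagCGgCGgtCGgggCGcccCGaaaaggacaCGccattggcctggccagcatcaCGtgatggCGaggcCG
The full window of 250 bases held 17 CpG dinucleotides for Tet3 and 19 for Tdg, against a median of 6 over all windows. The windows of Dnmt3a, the other member that fell, held 15 to 40. Members without a call held 21 for Dnmt3b, 22 for Mbd4, 10 and 30 for Uhrf1, and 2, 7 and 26 for Dnmt1. The counts of called and uncalled members overlap.

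Mbd4, the other glycosylase gene (chromosome 6, 115840697 to 115853371), was not called. It had a mean count of 420.9 and 0.10 ± 0.20 in the authors' deposited table (adjusted p = 0.725, DESeq2), or 79.7 mean counts per kilobase. Its interval of -0.28 to 0.49 overlaps that of Tdg, and the difference between these 2 glycosylase genes was not tested. Of 15 base excision repair genes, which hold other glycosylases as well as the enzymes that act after TDG and MBD4, 2 were higher, 3 lower and 10 not called in the authors' deposited table (median -0.13). The glycosylase gene Neil1, whose product can act after TDG, rose to 1.67 ± 0.29 at a mean count of 81.3, while the related Neil2 fell to -0.93 ± 0.18 in the authors' deposited table. Apex1, the endonuclease that acts on the site left by TDG, fell to -0.60 ± 0.17, and the uracil glycosylase gene Ung to -0.58 ± 0.18 in the authors' deposited table. Xrcc1, Polb and Lig3, which fill and close the gap, had -0.11 ± 0.19, -0.22 ± 0.15 and -0.29 ± 0.15 in the authors' deposited table, each without a call.

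By level per kilobase of merged exons the members fell in the order Uhrf1, Dnmt1, Dnmt3b, Tdg, Dnmt3a, Mbd4 and Tet3. Uhrf1 exceeded Tet3 by 42.3-fold on this scale, and Dnmt1 exceeded Dnmt3a by 10.0-fold. The spread of a level over libraries is unknown, so whether neighbours such as Tdg and Dnmt3a, at 126.5 and 108.4 mean counts per kilobase, differ cannot be said. The 3 called members held the places 4, 5 and 7 of this order, and the 3 members at its top were not called.

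Genes that read or respond to methylation gave the following counts. Of 10 methyl-CpG readers, 1 was higher and 1 lower in the authors' deposited table (median -0.11), Zbtb4 at 0.76 ± 0.22 and Zbtb33, which encodes the reader Kaiso, at -1.06 ± 0.17. All 14 listed germline genes that promoter methylation keeps silent in somatic cells were lower in the authors' deposited table (median -1.68), among them Mov10l1, Ddx4, Tex101 and Stk31 at -1.84 ± 0.16, -1.73 ± 0.17, -1.72 ± 0.17 and -1.72 ± 0.19. Such genes are themselves germ cell markers, and 4 of the 14 stand in other lists of this comparison. Dnmt1 and Uhrf1, which maintain that silencing in somatic cells, were not called, with an interval of -0.64 to -0.02 for Dnmt1. Any link between their values and those of the 14 genes was not tested.

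**Figure D4:**
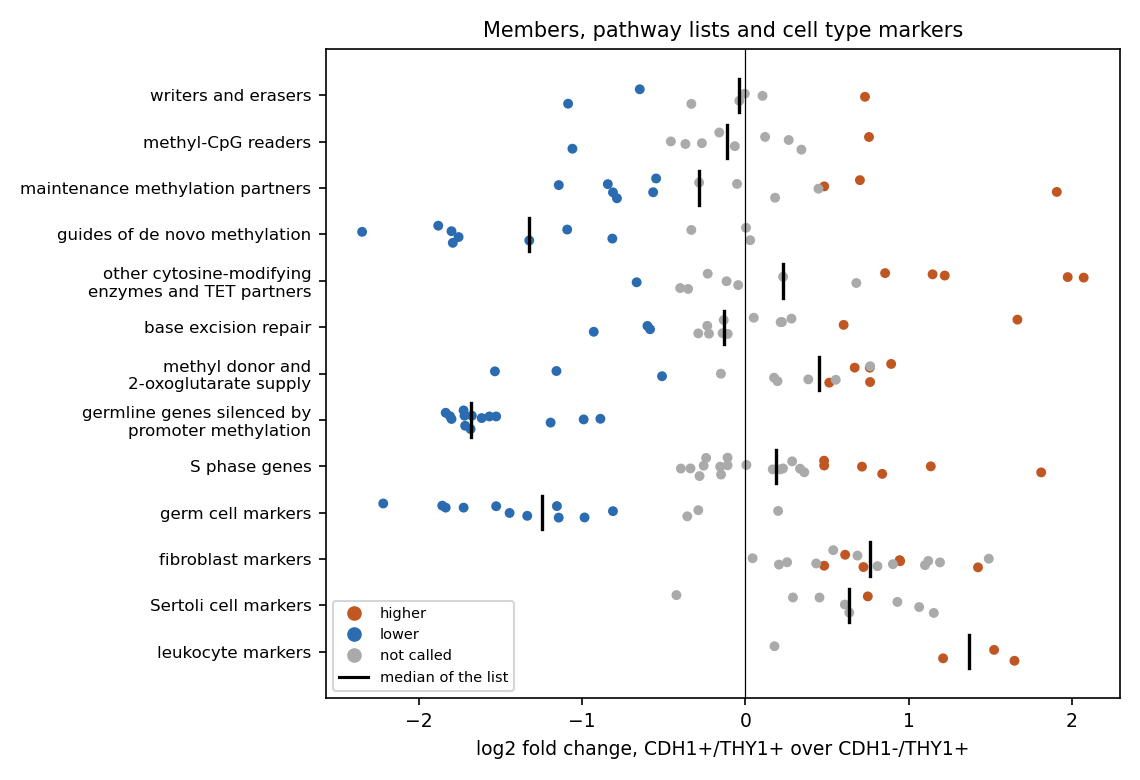
Log2 fold change (x axis) of each gene in the authors' deposited table, for the 7 members (top), 8 pathway lists and 4 marker lists, coloured by call, with a black bar at each list's median. The members straddle 0 around a median of -0.04, while the guides of de novo methylation have a median of -1.32 and the fibroblast markers one of 0.77.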

How the data were processed

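Per the submitters' processing notes, DESeq2 1.12.3 in R 3.3.1, Subread 1.5.0-p3 with featureCounts, TopHat2 2.1.1 and Trimmomatic 0.32 were used, with build GRCm38.p4. The model formula, the annotation and whether counting used strand are not given in the sources used here. The mean normalised count of the authors' deposited table is a signal of 0 or more, made from counts scaled by library and averaged over the 6 libraries. The authors deposited fold changes and their standard errors as log2 values, the Wald statistic as a score, and for most rows a p-value and an adjusted p-value. No standard error exceeds 0.639, so fold changes of genes with few reads may have been shrunken towards 0 by the authors. Depth per sample is unknown.

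Symbols, positions and exon lengths came from GENCODE M21 (22317 of 22432 rows matched). The adjusted p-values rest on 19743 tests, of which 532 have no row in the data used; among all tests 35.3% were under 0.05. Intervals, ranks, lists and alternative adjustments were computed with Python 3.11.15, pandas 2.3.3 and scipy 1.17.1, and the adjustments were tested on simulated data. All 10 members are named; of each list up to 4 called genes of smallest adjusted p, and genes tied directly to a member, are named. A few listed genes are not reported here by name. Promoter windows came from RefSeq, and all 10 members had 1 or more. Members and lists were chosen with earlier results of these data known.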

Additional observations from a re-analysis of the deposited data

How the results depend on the processing

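The 3 calls (2 lower, 1 higher) gave the same counts and directions under 5 alternatives: an adjusted p under 0.01, a Benjamini-Yekutieli adjustment, a Benjamini-Hochberg adjustment over all rows with a p-value or over those with a mean count of at least 10, and fold changes centred on the median of abundant rows. All 35 member values kept their side of the threshold. Over these, the adjusted p of Tdg ran from 0.00219 to 0.0335 and that of Dnmt1 from 0.0632 to 1. The number of all rows called at the main threshold was 6438, against 3633 after the Benjamini-Yekutieli adjustment and 4420 at an adjusted p under 0.01. With the longest transcript in place of merged exons no member changed its place in the order by level, and with no length 6 of 7 did. No paired analysis was possible because the table holds the comparison and no value per library, and for the same reason no library could be left out.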
